A study of Mus musculus with 12 samples.

Results

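The 28 genes described here encode subunits of complex III and of ATP synthase, cytochrome c, and the ATP synthase inhibitor. They are the symbols among the 23163 of the count table that begin with Uqcr or Atp5, pseudogene symbols ending in -ps left out, together with Cyc1, Cycs and Atpif1. By role, 9 belong to complex III (4 core and 5 small subunits), 1 is cytochrome c, 5 belong to the catalytic F1 head of ATP synthase, 3 encode its c ring, 4 its peripheral stalk and 3 its small membrane subunits. The others are the inhibitor Atpif1 and 2 genes, Atp5s and Atp5sl, whose products are known in human cells as an ATP synthase coupling factor and an assembly protein of complex I.

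Complex III takes electrons from ubiquinol, hands them to cytochrome c and moves protons across the inner mitochondrial membrane. ATP synthase lets the protons return through its c ring and uses that flow to make ATP, which the inhibitor protein encoded by Atpif1 can block. Brown fat of mice is known for a strong respiratory chain beside little ATP synthase, because the uncoupling protein UCP1 returns protons as heat, and the c ring gene Atp5g1 has been linked to that low amount.

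The samples are brown adipose tissue (BAT) and the subcutaneous white fat (sWAT) of wild-type C57Bl/6 males, 8 to 12 weeks old. Of 20 mice, 10 had spent 72 hours in the cold at 4 °C and 10 had spent the same time at 30 °C, a temperature that needs no extra heat production. The 4 groups, BAT cold, BAT thermoneutral, sWAT cold and sWAT thermoneutral, have 3 libraries each of total RNA, and the labels name no drug or altered gene. The titles number the libraries of each group by experiment, 1 to 3, without saying what an experiment shares, and the labels do not tell whether the libraries of a group are separate animals, so the p-values measure the spread between these samples, which may be technical.

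Libraries held 27117934 to 56243016 counts, and some stood apart. In the 3 sWAT thermoneutral libraries mitochondrially encoded genes took 0.181% to 0.307% of the counts and ribosomal protein genes 6.34% to 7.14%, against 17.6% to 53.8% and 0.307% to 1.61% in the other 9. Their slope of log2 CPM (counts scaled to the size of the library) on transcript GC content was 0.76 to 1.22 per 10 percentage points, against −0.62 to 0.25 elsewhere, so composition and group cannot be told apart in sWAT. BAT cold library 3 was below both other libraries of its group in 23 of the 28 genes (median log2 difference −0.97), BAT thermoneutral library 3 in 22 (−0.69) and sWAT cold library 1 in 26 (−1.52). The 8 brown adipocyte markers summed to 26234 to 29738 CPM in BAT cold and 6391 to 6980 CPM in BAT thermoneutral libraries, with 4712 to 17859 CPM in sWAT cold and 259 to 1190 CPM in sWAT thermoneutral ones. None of them was at 0 in any group.

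Levels between genes were compared as CPM per kb of transcript. Atp5b, the catalytic beta subunit, was the highest of the 28 genes in BAT cold (3155 ± 829, SD, n = 3), BAT thermoneutral (2099 ± 549) and sWAT cold (2051 ± 963), and had rank 4 in sWAT thermoneutral (791 ± 204). The small complex III subunit Uqcr10 led in sWAT thermoneutral at 1136 ± 354 CPM per kb, a value whose spread overlapped those of Uqcr11 (1037 ± 296) and Uqcrq (958 ± 319.9). Uqcrb, another small subunit of complex III, had rank 4 in BAT cold (1450 ± 415) and rank 3 in BAT thermoneutral (1273 ± 97.8), but rank 25 in sWAT thermoneutral (7.08 ± 1.94). Atp5s was the lowest of the 28 in every group, from 0.605 ± 0.109 in sWAT thermoneutral to 4.82 ± 1.25 CPM per kb in BAT thermoneutral. The c ring genes Atp5g1 and Atp5g2, and Atpif1, also stood low: in BAT cold Atp5g1 averaged 26.5 ± 9.77, Atpif1 20.9 ± 8.37 and Atp5g2 8.62 ± 4.15 CPM per kb.

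**Figure D1:**
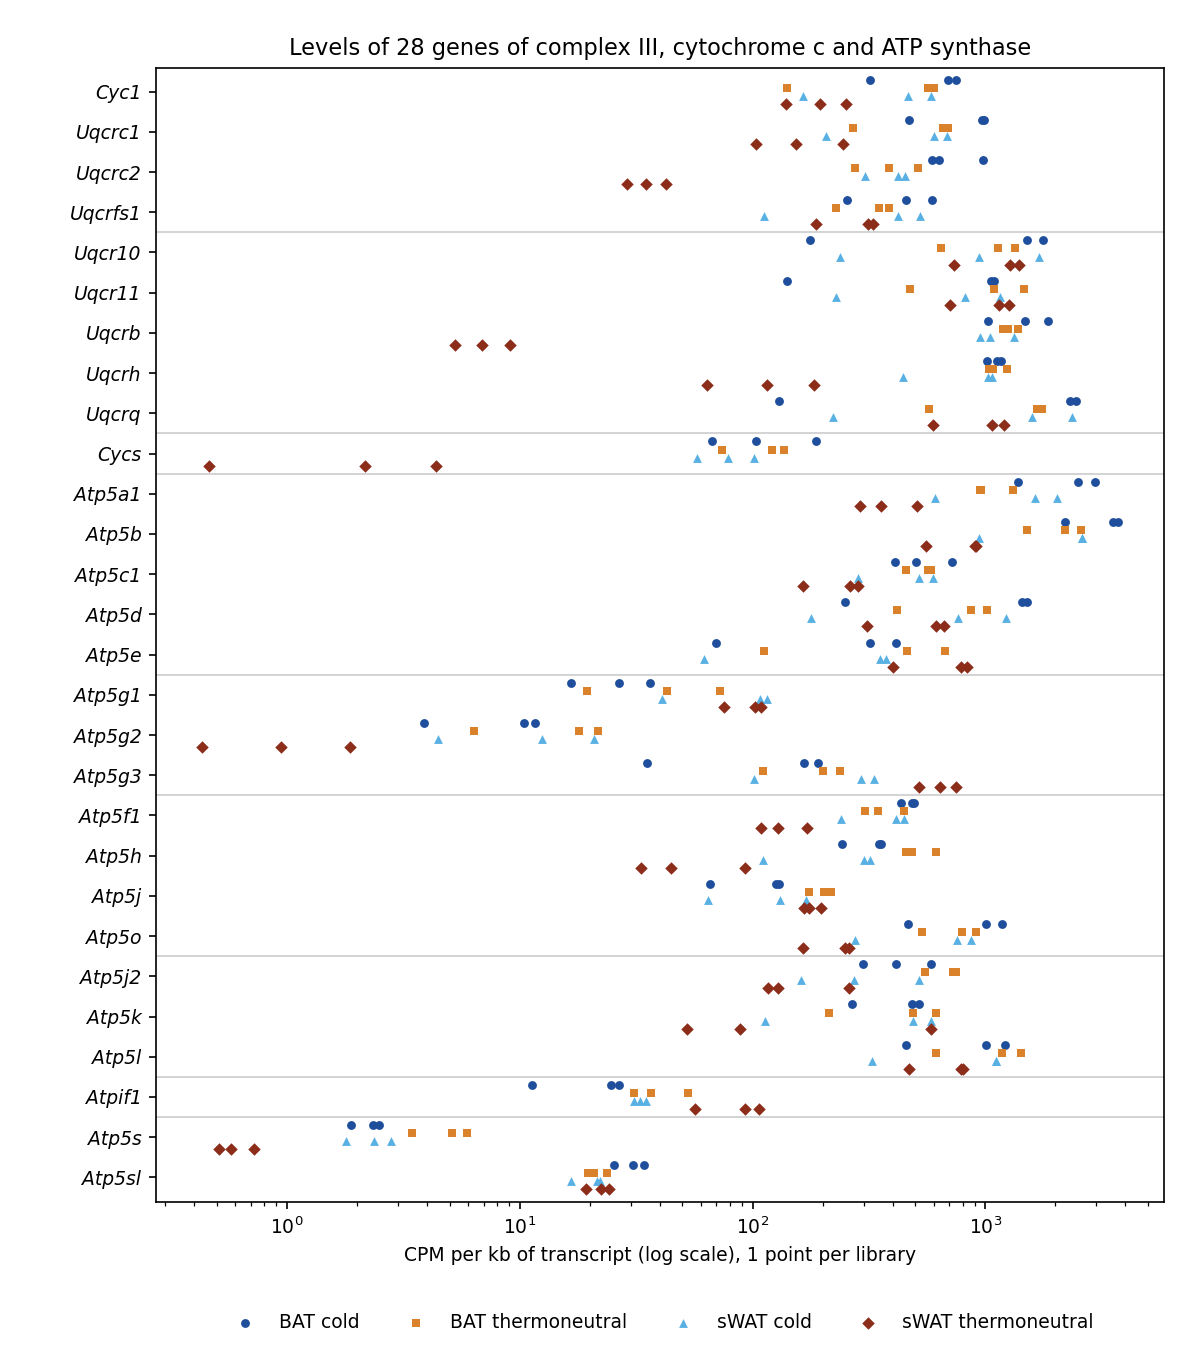
Levels of the 28 genes in each library, in CPM per kb of transcript on a log axis, grouped by role, with 1 point per library (BAT cold, BAT thermoneutral, sWAT cold and sWAT thermoneutral). Uqcrb, Cycs, Atp5g2 and Atp5s in sWAT thermoneutral libraries lie left of the other 9 libraries, while Uqcr10, Uqcr11 and Uqcrq of sWAT thermoneutral lie among them.

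In BAT, the comparison of cold with thermoneutrality asked how the machinery of respiration and ATP production responded in the tissue whose task is heat. None of the 28 genes passed an adjusted p of 0.05 with edgeR's quasi-likelihood test, beside 12.2% of the 14612 genes tested (6.82% higher and 5.34% lower). In all, 6 had an unadjusted p under 0.05. DESeq2 called 1 higher (Atp5a1) and 1 lower (Atp5s), beside 2806 of the 14612 genes called either way, and limma-voom called 0, beside 1718. With the experiment number as a replicate block, Uqcrc2 was called higher, beside 10.2% of genes, and Atp5j lower, beside 8.94%. A p that misses the threshold does not show that levels were alike, and in bulk tissue fewer cells of a type and less RNA per cell cannot be told apart. The 28 log2 fold changes had a median of 0.11, against −0.04 for all genes tested, and lay between −1.06 and 1.12. With a correction for transcript length the median was 0.41, against −0.05 for all genes. In 7 of the 28 genes, beside 35.6% of all genes tested, the 3 cold libraries did not overlap the 3 thermoneutral ones: Atp5a1, Atp5sl and Uqcrc2 were above, and Atp5h, Atp5j, Atp5s and Atpif1 below.

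Atp5a1, the alpha subunit of the F1 head, had 7298, 6150 and 3415 CPM in BAT cold libraries, against 2336, 3264 and 2361 CPM in BAT thermoneutral ones. All 3 cold libraries were above all 3 thermoneutral ones, with library 3 the lowest of the cold group. The log2 fold change was 1.12 ± 0.37 (SE, 3 libraries per group; edgeR adjusted p = 0.0841). Atp5s went the other way, with 3.47, 2.81 and 3.69 CPM in cold libraries against 7.60, 8.77 and 5.12 CPM in thermoneutral ones, again without overlap. Its log2 fold change was −1.06 ± 0.32 (edgeR adjusted p = 0.0641).

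By role, the BAT values of complex III were 0.47 to 0.94 for the 4 core subunits. They were cytochrome c1 (Cyc1, 0.47 ± 0.55, edgeR adjusted p = 0.605), the core proteins Uqcrc1 (0.63 ± 0.44, adjusted p = 0.376) and Uqcrc2 (0.94 ± 0.35, adjusted p = 0.112), and the Rieske iron-sulfur protein Uqcrfs1 (0.48 ± 0.37, adjusted p = 0.420). The 5 small subunits lay between −0.36 (Uqcr11) and 0.34 (Uqcrq). Cytochrome c, Cycs, was at 0.15 ± 0.42 (adjusted p = 0.849). In ATP synthase, Atp5b was at 0.63 ± 0.36 (adjusted p = 0.276), while the 3 c ring genes were all negative: Atp5g1 −0.73 ± 0.48, Atp5g2 −0.79 ± 0.54 and Atp5g3 −0.44 ± 0.57, with edgeR adjusted p of 0.349, 0.364 and 0.642. Atpif1 was at −0.90 ± 0.38 (adjusted p = 0.155), or −0.35 without both libraries numbered 3 (adjusted p = 0.15).

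The values behind these folds varied widely between BAT libraries. Uqcrc2 had 1201, 1115 and 1846 CPM in BAT cold libraries, against 522, 730.1 and 978 CPM in BAT thermoneutral ones, so the groups did not overlap and library 3 was the highest of each. Atp5b had 7128, 6785 and 4220 CPM in the cold and 4224, 4958 and 2884 CPM at thermoneutrality, with library 3 the lowest of each and an overlap between the groups. Among the c ring genes, Atp5g1 had 16.0, 21.5 and 9.89 CPM in the cold against 25.7, 43.3 and 11.7 CPM at thermoneutrality. For Atp5g3 the values were 136, 119 and 25.2 CPM in cold libraries and 169.6, 144 and 79.0 CPM in thermoneutral ones. In both, library 3 was the lowest of its group, and the groups overlapped. Cycs was spread over 208 to 583 CPM in cold and 232 to 428 CPM in thermoneutral libraries.

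Both BAT libraries numbered 3 stood apart, and the BAT comparison was also run without them, on 2 libraries per group. Then 6 of the 28 genes were higher in cold, beside 22.4% of all 14566 genes tested, and 5 were lower, beside 22.3%, so the shares were near those of the table as a whole. The higher genes were Atp5a1 (1.30 ± 0.25, edgeR adjusted p = 0.00183), Atp5sl (0.72 ± 0.18), Uqcrc2 (0.93 ± 0.23), Atp5d, the delta subunit of F1 (0.68 ± 0.21), Atp5b (0.64 ± 0.23) and Uqcrc1 (0.58 ± 0.21). The lower genes were Atp5s (−1.35 ± 0.25, adjusted p = 0.00130), coupling factor 6 of the stalk, Atp5j (−0.67 ± 0.19), the stalk subunit d, Atp5h (−0.59 ± 0.20), Atp5g1 (−0.84 ± 0.26) and Atp5g2 (−0.82 ± 0.23). Leaving out BAT cold library 3 alone gave 1 call, Atp5a1 (1.39), beside 2483 of 15028 genes called either way. Leaving out BAT thermoneutral library 3 alone gave 1, Atp5s (−1.28), beside 2182 of 14864.

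**Figure D2:**
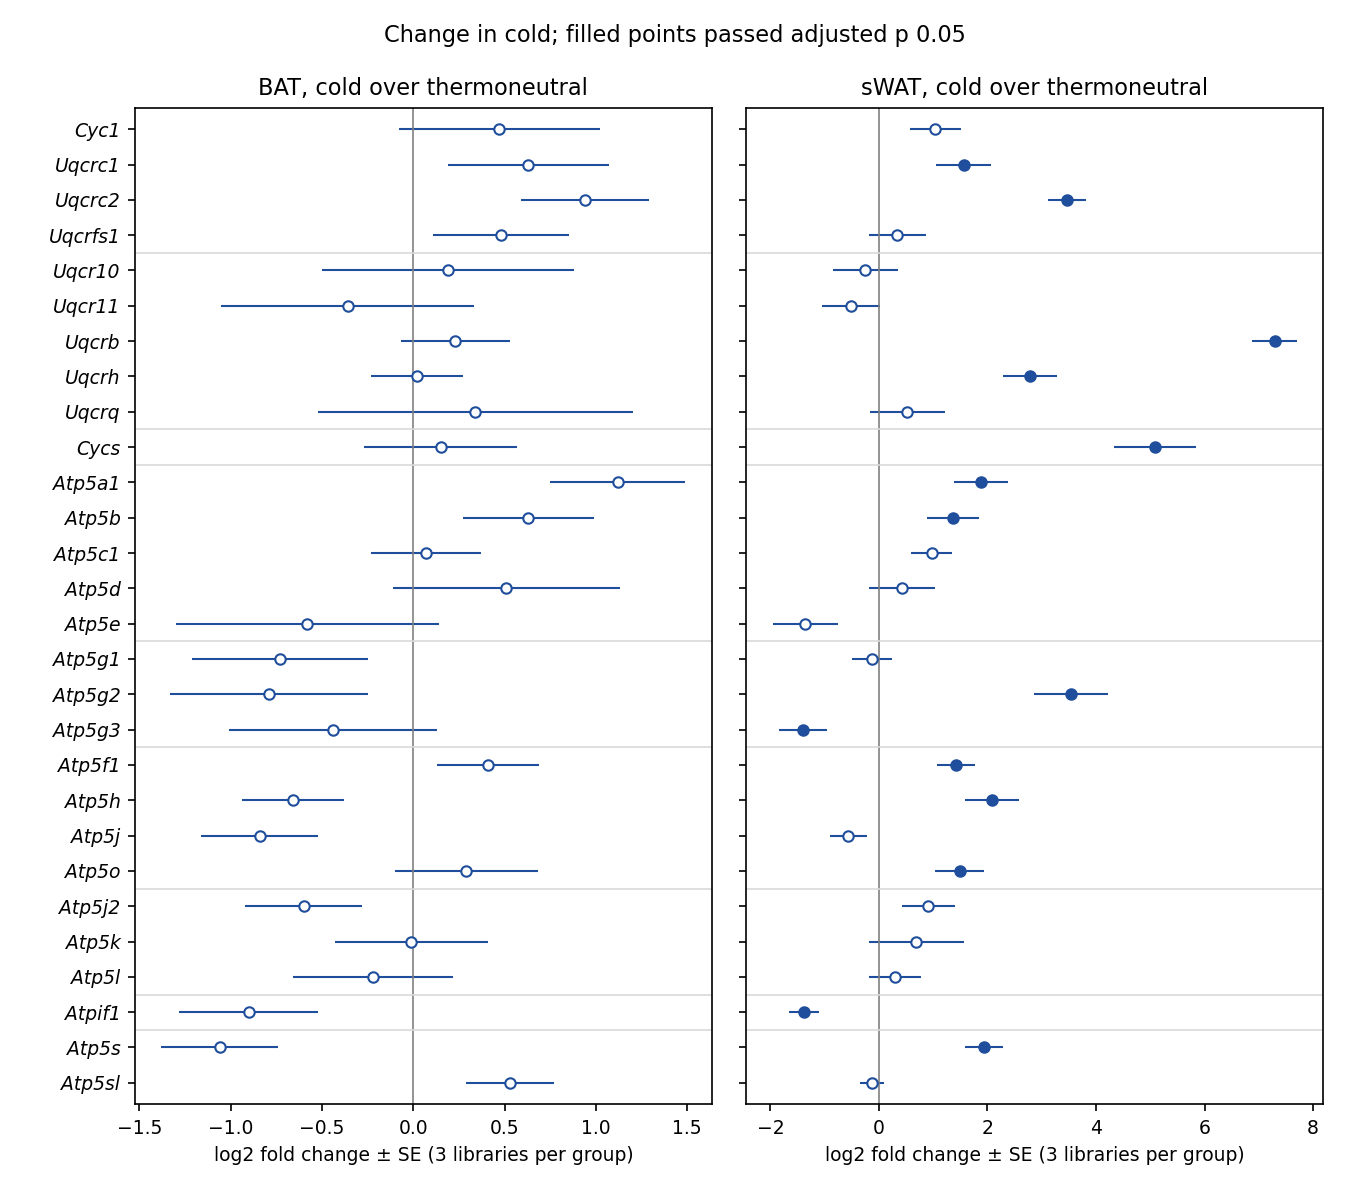
Log2 fold change of each gene, cold over thermoneutral, with its SE (3 libraries per group), for BAT on the left and sWAT on the right, which has a wider axis. Filled points passed an adjusted p of 0.05 in edgeR's quasi-likelihood test: 0 of 28 in BAT, and 14 of 28 in sWAT, with Uqcrb at 7.29 and Cycs at 5.09.

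In sWAT, the same comparison asked how the white fat, which can take on features of brown fat in the cold, responded. Of the 28 genes, 12 rose in cold, beside 25.1% of the 15731 genes tested that were higher, and 2 fell, beside 24.1% that were lower. All 28 passed the filter on low counts here and in every other comparison. The median log2 fold change was 0.94, against 0.00 for all genes tested, with a range of −1.40 (Atp5g3) to 7.29 (Uqcrb). Without sWAT cold library 1, the one that stood apart, 16 of the 28 were higher, beside 26.3% of genes, and 2 lower, beside 27.9%. With the replicate block, 10 of the 28 were called, beside 41.4% of genes, of which 8 were higher and 2 lower. In 15 of the 28 genes the groups did not overlap, beside 60.6% of all genes tested.

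The change in complex III was uneven between subunits. Uqcrb (ENSMUSG00000021520.4, GRCm38 chromosome 13, 66900617 to 66905378, minus strand), a small subunit next to the ubiquinone site, had 559, 505 and 709.7 CPM in sWAT cold libraries, against 3.67, 4.88 and 2.81 CPM in sWAT thermoneutral ones. The groups were far apart. The sWAT cold libraries 1 and 3 lay within the range of the 6 BAT libraries, 547 to 989.9 CPM, and library 2 below it. The counts behind these values were 16899 to 29864 in cold and 148 to 199 in thermoneutral libraries. The log2 fold change was 7.29 ± 0.41, or 157-fold (edgeR adjusted p = 1.74e-04).

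Uqcrc2 (GRCm38 chromosome 7, 120635176 to 120659524, plus strand), one of the pair of large core proteins, had 578, 801 and 859.7 CPM in sWAT cold libraries and 66.2, 54.5 and 80.6 CPM in sWAT thermoneutral ones. The groups were far apart, and the log2 fold change was 3.47 ± 0.35 (edgeR adjusted p = 3.08e-04). Uqcrh, the acidic hinge protein that helps cytochrome c1 meet cytochrome c, had 242, 582 and 562 CPM in the same sWAT cold libraries against 101, 35.0 and 62.8 CPM in the thermoneutral ones, a change of 2.79 ± 0.50 (adjusted p = 0.00249). Uqcrc1, the partner of Uqcrc2, rose by less, 1.56 ± 0.51 (adjusted p = 0.0318), and its groups overlapped, because sWAT cold library 1 (343 CPM) was below sWAT thermoneutral library 1 (404 CPM).

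The other 5 complex III genes did not pass. Cyc1 had 251, 891 and 709 CPM in sWAT cold libraries and 383, 296 and 212 CPM in sWAT thermoneutral ones (1.04 ± 0.47, edgeR adjusted p = 0.0964). Uqcrfs1 was at 0.34 ± 0.53 (adjusted p = 0.616). Uqcr10, Uqcr11 and Uqcrq, small subunits like Uqcrb, were at −0.25, −0.51 and 0.52, with adjusted p of 0.751, 0.452 and 0.555. In sWAT thermoneutral libraries they averaged 1136 (Uqcr10), 1037 (Uqcr11) and 958 (Uqcrq) CPM per kb, beside 7.08 CPM per kb of Uqcrb, whose product sits in the same complex.

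Cycs (GRCm38 chromosome 6, 50562563 to 50566538, minus strand), the somatic cytochrome c that carries electrons from complex III to complex IV, had 245, 181 and 315 CPM in sWAT cold libraries, against 13.6, 6.74 and 1.45 CPM in sWAT thermoneutral ones. The groups were far apart, and relative to their level the thermoneutral libraries differed among themselves more than the cold ones. The log2 fold change was 5.09 ± 0.75, or 34.1-fold (edgeR adjusted p = 0.00110). The testis cytochrome c gene, Cyct, had at most 0.0702 CPM in any library and was not tested.

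The promoter of Cycs is shown because it was among the 2 of 21 promoters of these genes found in RefSeq (GRCm38.p6) that hold the cyclic AMP response element TGACGTCA. The capitals mark that element. The 250 bases before the RefSeq start of the gene lie at chr6:50566570-50566819 on the minus strand and read, 5′ to 3′:
Cycs: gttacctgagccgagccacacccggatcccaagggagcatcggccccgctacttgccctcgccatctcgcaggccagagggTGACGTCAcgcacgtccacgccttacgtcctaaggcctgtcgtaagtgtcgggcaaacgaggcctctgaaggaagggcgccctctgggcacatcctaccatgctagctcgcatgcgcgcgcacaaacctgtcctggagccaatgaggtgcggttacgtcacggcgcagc
The element occurs, on either strand, in 1.62% of the 27025 windows of this length in the RefSeq table. The other of these promoters with it was that of Uqcrfs1, a gene that did not pass in sWAT or in BAT.

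In ATP synthase, the F1 head and the peripheral stalk held 5 of the called genes. Atp5b had 1798, 4996 and 4994 CPM in sWAT cold libraries and 1736, 1746 and 1064 CPM in sWAT thermoneutral ones. Cold library 1 was only just above the thermoneutral group, and the log2 fold change was 1.37 ± 0.48 (edgeR adjusted p = 0.0401). Atp5a1 had 1507, 5030 and 4049 CPM in cold against 1262, 881 and 713 CPM at thermoneutrality, and rose by 1.88 ± 0.50 (edgeR adjusted p = 0.0141). The other head subunits, gamma (Atp5c1), delta (Atp5d) and epsilon (Atp5e), did not pass, at 0.97, 0.43 and −1.36. In the stalk that holds the head still, Atp5h (2.09), OSCP encoded by Atp5o (1.49) and subunit b encoded by Atp5f1 (1.42) rose, and Atp5j (−0.56) did not pass.

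The small membrane subunits f, e and g, encoded by Atp5j2, Atp5k and Atp5l, were at 0.91, 0.69 and 0.30, and none passed. Atp5k had 216 CPM in sWAT thermoneutral library 1 beside 32.9 and 19.3 CPM in libraries 2 and 3. That spread was wider than the difference between the group means, 147 CPM in sWAT cold and 89.4 CPM in sWAT thermoneutral libraries. Atp5s rose, with 2.68, 3.52 and 4.18 CPM in sWAT cold libraries against 1.08, 0.858 and 0.761 CPM in sWAT thermoneutral ones. The groups did not overlap, and the log2 fold change was 1.94 ± 0.35 (edgeR adjusted p = 0.00266). With a correction for the GC content of transcripts it was 0.14 (adjusted p = 0.815), which ends the call. Atp5sl did not pass (−0.13).

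Several sWAT calls were near the threshold and were lost when 1 library was left out. Of the 12 genes that rose, 8 (Atp5f1, Atp5g2, Atp5h, Atp5s, Cycs, Uqcrb, Uqcrc2 and Uqcrh) passed in each of the 6 fits that left out 1 library, and also with the replicate block. The other 4 lost their calls with the block, at edgeR adjusted p of 0.0659 (Atp5a1), 0.127 (Atp5b), 0.0763 (Atp5o) and 0.105 (Uqcrc1). Atp5a1 lost its call without sWAT thermoneutral library 2 (edgeR adjusted p = 0.0625) or 3 (0.0502). Atp5b and Atp5o lost theirs without any one library other than sWAT cold library 1, with adjusted p of 0.0854 to 0.133 and 0.0555 to 0.0778. Uqcrc1 lost its call without sWAT cold library 2 or 3 or thermoneutral library 2 or 3 (0.0871 to 0.107). Of the 2 that fell, Atpif1 passed in all 6 such fits, and Atp5g3 lost its call without sWAT cold library 3 or thermoneutral library 1 or 2 (0.0565 to 0.0839).

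The 3 c ring genes encode the same mature protein behind different import sequences, and in sWAT each behaved differently. Atp5g3, the most abundant per kb, had 71.8, 238 and 208 CPM in sWAT cold libraries, against 458, 534 and 370.3 CPM in sWAT thermoneutral ones, without overlap. It fell by 1.40 on the log2 scale (SE 0.44, edgeR adjusted p = 0.0276). Atp5g2, the least abundant per kb, had 1.97, 5.50 and 9.17 CPM in cold against 0.819, 0.417 and 0.190 CPM at thermoneutrality, and rose by 3.54 ± 0.69 (adjusted p = 0.00363), from counts of 105 to 292 in cold and 10 to 35 in thermoneutral libraries. Atp5g1 had 24.3, 64.4 and 68.3 CPM in cold against 64.8, 60.6 and 44.8 CPM in the sWAT thermoneutral libraries, and its value of −0.12 ± 0.37 did not pass (adjusted p = 0.802).

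The promoters of the c ring genes are shown side by side because their mRNAs moved apart. Each is the 250 bases before the RefSeq start (GRCm38.p6), 5′ to 3′ on the minus strand, at chr11:96075632-96075881 for Atp5g1, chr15:102671048-102671297 for Atp5g2 and chr2:73911327-73911576 for Atp5g3. Only the first RefSeq window of each gene was used. The Atp5g2 window lies inside the gene as GENCODE places it (102662864 to 102672352), downstream of that start. The Atp5g1 window overlaps the first bases of its GENCODE gene (96068852 to 96075670). Capitals mark a match to the motif of the nuclear respiratory factor NRF1 (GCGCA, any base, then GCGC) in Atp5g2, and one to the motif of the estrogen-related receptors (AAGGTCA, here on the opposite strand as TGACCTT) in Atp5g3.
Atp5g1: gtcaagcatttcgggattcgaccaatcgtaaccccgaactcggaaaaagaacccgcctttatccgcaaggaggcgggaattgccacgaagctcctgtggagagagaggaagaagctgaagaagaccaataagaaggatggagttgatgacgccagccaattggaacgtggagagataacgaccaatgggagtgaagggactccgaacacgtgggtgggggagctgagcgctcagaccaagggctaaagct
Atp5g2: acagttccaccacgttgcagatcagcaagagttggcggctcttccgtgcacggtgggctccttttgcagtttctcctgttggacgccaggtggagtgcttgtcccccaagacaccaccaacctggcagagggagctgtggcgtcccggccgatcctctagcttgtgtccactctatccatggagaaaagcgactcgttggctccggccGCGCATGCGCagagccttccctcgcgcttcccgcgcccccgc
Atp5g3: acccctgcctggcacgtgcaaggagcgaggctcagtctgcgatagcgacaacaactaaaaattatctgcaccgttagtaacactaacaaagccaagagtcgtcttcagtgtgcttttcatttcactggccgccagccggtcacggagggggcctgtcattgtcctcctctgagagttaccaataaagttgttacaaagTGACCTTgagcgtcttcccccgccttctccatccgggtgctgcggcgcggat
On either strand, the NRF1 motif occurred in 3.86% of the 27025 RefSeq windows and in 4 of the 21 promoters found for these genes (Atp5g2, Atp5h, Atp5k and Atpif1). Only exact matches were counted for every motif. The Cycs promoter above, which differs from the NRF1 motif in a single base at its closest place, is therefore not among them. The estrogen-related receptor motif occurred in 4.05% of windows and in 3 of the 21 (Atp5g3, Atp5l and Atpif1), and the ETS motif CCGGAAG in 7.05% and in 5 (Atp5e, Atp5h, Atp5l, Uqcr11 and Uqcrh). No matches overlapped one another in these promoters, and those with a match include genes that rose, genes that fell and genes that did not pass.

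As a share of the summed counts per kb of the c ring genes, Atp5g1 took 27.9%, 23.8% and 26.9% in sWAT cold libraries, against 14.5%, 11.9% and 12.7% in sWAT thermoneutral ones. The groups did not overlap, and the mean log2 difference was 1.01 (exact permutation test, two-sided, p = 0.10, the smallest that 3 against 3 libraries can give). In BAT the share was 11.7%, 16.9% and 29.7% in cold and 14.4%, 24.6% and 14.3% at thermoneutrality, which overlapped (0.07, exact permutation p = 1.00). Without both BAT libraries numbered 3 the BAT value was −0.42. Atp5g3 held the largest share in all 12 libraries, from 63.3% to 87.9%, and Atp5g2 held 0.0726% to 0.247% in sWAT thermoneutral libraries beside 2.74% to 7.35% in the other 9.

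**Figure D3:**
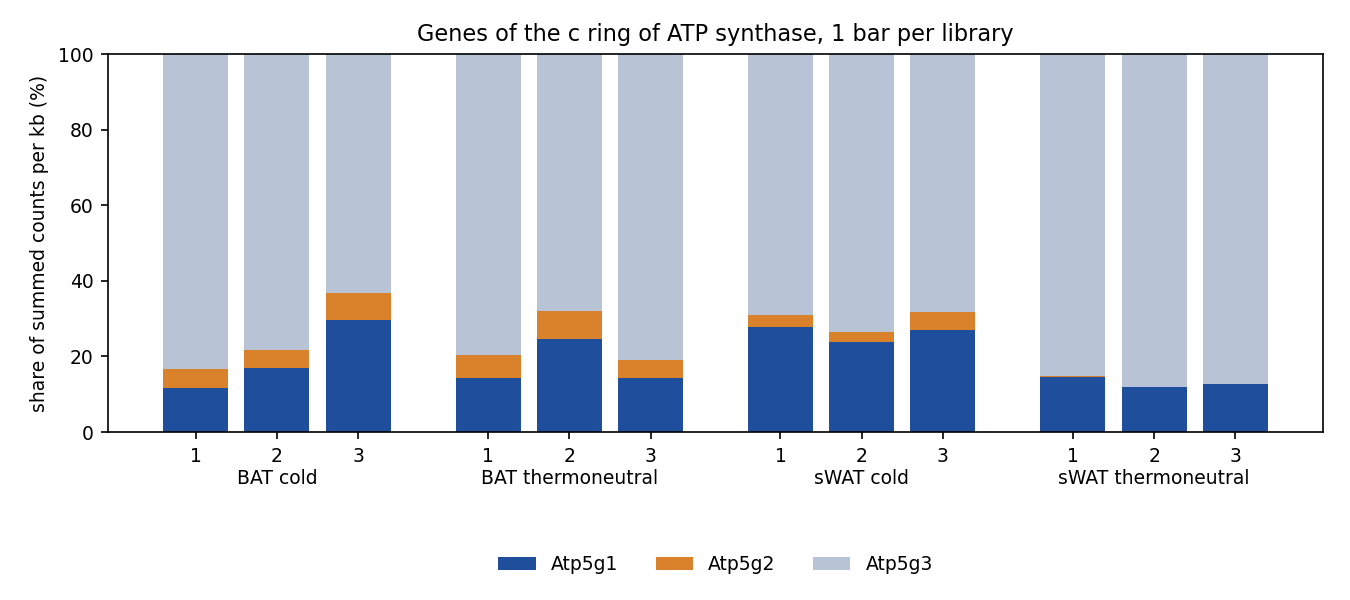
Share of each c ring gene in the summed counts per kb of Atp5g1, Atp5g2 and Atp5g3, in percent, with 1 bar per library. The Atp5g1 share is 23.8% to 27.9% in sWAT cold and 11.9% to 14.5% in sWAT thermoneutral libraries, and Atp5g2 is barely visible in the sWAT thermoneutral bars.

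Atpif1 (ENSMUSG00000054428.12, GRCm38 chromosome 4, 132530555 to 132533659, minus strand) had 16.6, 17.7 and 18.8 CPM in sWAT cold libraries, against 50.2, 57.9 and 30.5 CPM in sWAT thermoneutral ones. The cold libraries lay close together and all below the thermoneutral group. The gene fell by 1.38 on the log2 scale (SE 0.27, edgeR adjusted p = 0.00393). The BAT libraries had 13.3, 14.4 and 6.10 CPM of Atpif1 in the cold, against 19.7, 16.7 and 28.6 CPM at 30 °C, also without overlap, and the fitted difference there shrank to −0.35 without both libraries numbered 3.

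Set against Atp5b within each library, which needs no scaling, Atpif1 per kb was 3.29%, 1.26% and 1.34% of Atp5b in sWAT cold and 10.3%, 11.8% and 10.2% in sWAT thermoneutral libraries. That is a log2 difference of −2.60 (exact permutation test, two-sided, p = 0.10, the smallest possible). In BAT the ratio was 0.661%, 0.757% and 0.514% in cold and 1.66%, 1.20% and 3.52% at thermoneutrality, a difference of −1.59 (exact permutation p = 0.10), or −0.99 without both libraries numbered 3. In each tissue every cold library was below every thermoneutral one.

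The ratio of complex III to ATP synthase, as geometric means of counts per kb over 9 and 15 genes, was 2.52, 2.60 and 2.19 in the cold BAT libraries, against 1.94, 1.89 and 1.94 in the thermoneutral ones. In sWAT it was 1.96, 2.17 and 1.85 in cold and 0.924, 1.06 and 1.14 at thermoneutrality. Cold libraries were above thermoneutral ones in both tissues, by 0.34 in BAT and 0.94 in sWAT on the log2 scale, each with an exact permutation p of 0.10. In BAT the difference was 0.04 with medians in place of geometric means (exact permutation p = 0.80). Without Uqcrb, an alternative chosen after seeing the data, the cold sWAT libraries had ratios of 1.65, 2.15 and 1.73, against 1.43, 1.55 and 1.71 in the thermoneutral ones. These overlapped, and the difference was 0.24 (exact permutation p = 0.20). In BAT the difference without Uqcrb was 0.33, also with overlap (exact permutation p = 0.20).

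**Figure D4:**
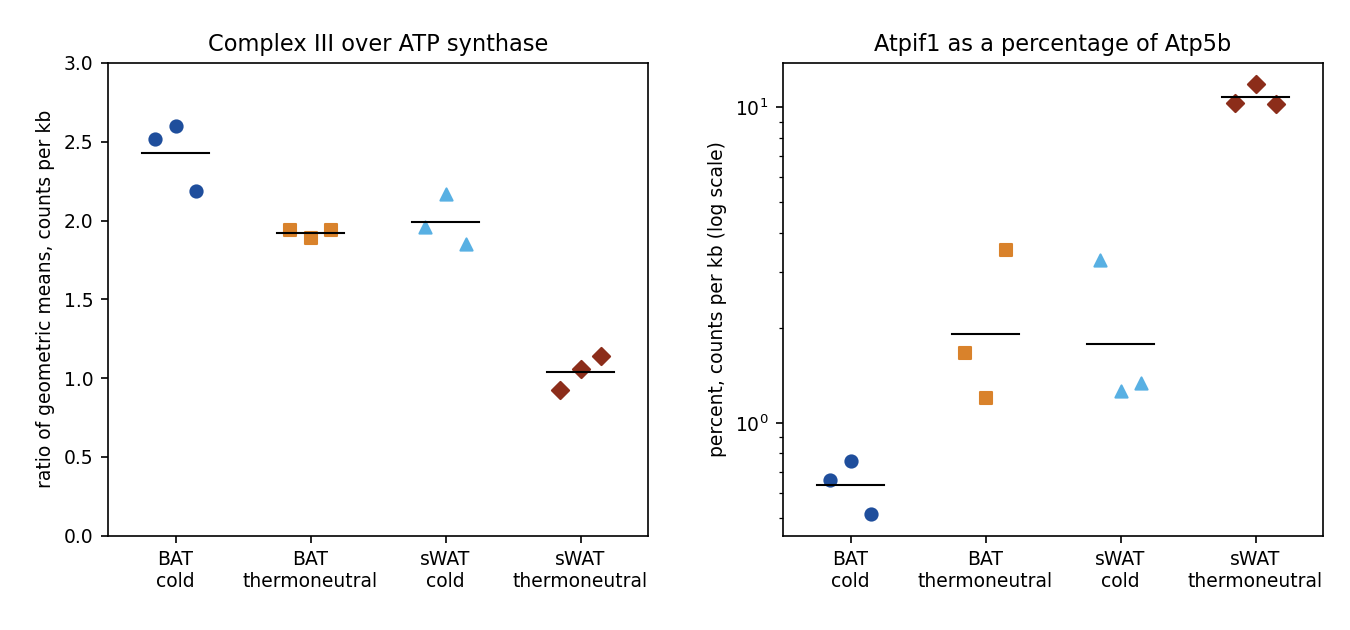
Ratios within each library: complex III over ATP synthase on the left (linear axis from 0), and Atpif1 as a percentage of Atp5b on the right (log axis), with 1 point per library and a line at the geometric mean of each group. Cold libraries lie above thermoneutral ones on the left (2.19 to 2.60 against 1.89 to 1.94 in BAT) and below them on the right (0.514% to 0.757% against 1.20% to 3.52% in BAT).

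Several genes that rose in sWAT have little GC in their transcripts. Uqcrb has 42.2% GC, Cycs 40.8%, Uqcrc2 44.4% and Atp5s 39.0%, the 4 lowest of the 28, while Atp5g2, with 56.7%, also rose. Across the 28 genes, which are not independent replicates, the Spearman correlation of GC with the sWAT log2 fold change was −0.42, and across all 15591 tested genes with a GC value it was −0.53. In BAT it was −0.01 over the 28 genes. With a correction for GC fitted over all genes, 13 of the 28 were higher in sWAT cold, beside 24.1% of genes, and 2 lower, beside 19.0%. Uqcrb (6.17), Atp5g2 (4.34), Cycs (3.51), Uqcrh (2.80) and Uqcrc2 (2.78) kept their calls, whereas Atp5s did not. Whether the composition of the thermoneutral libraries has a part in the remaining values was not tested.

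**Figure D5:**
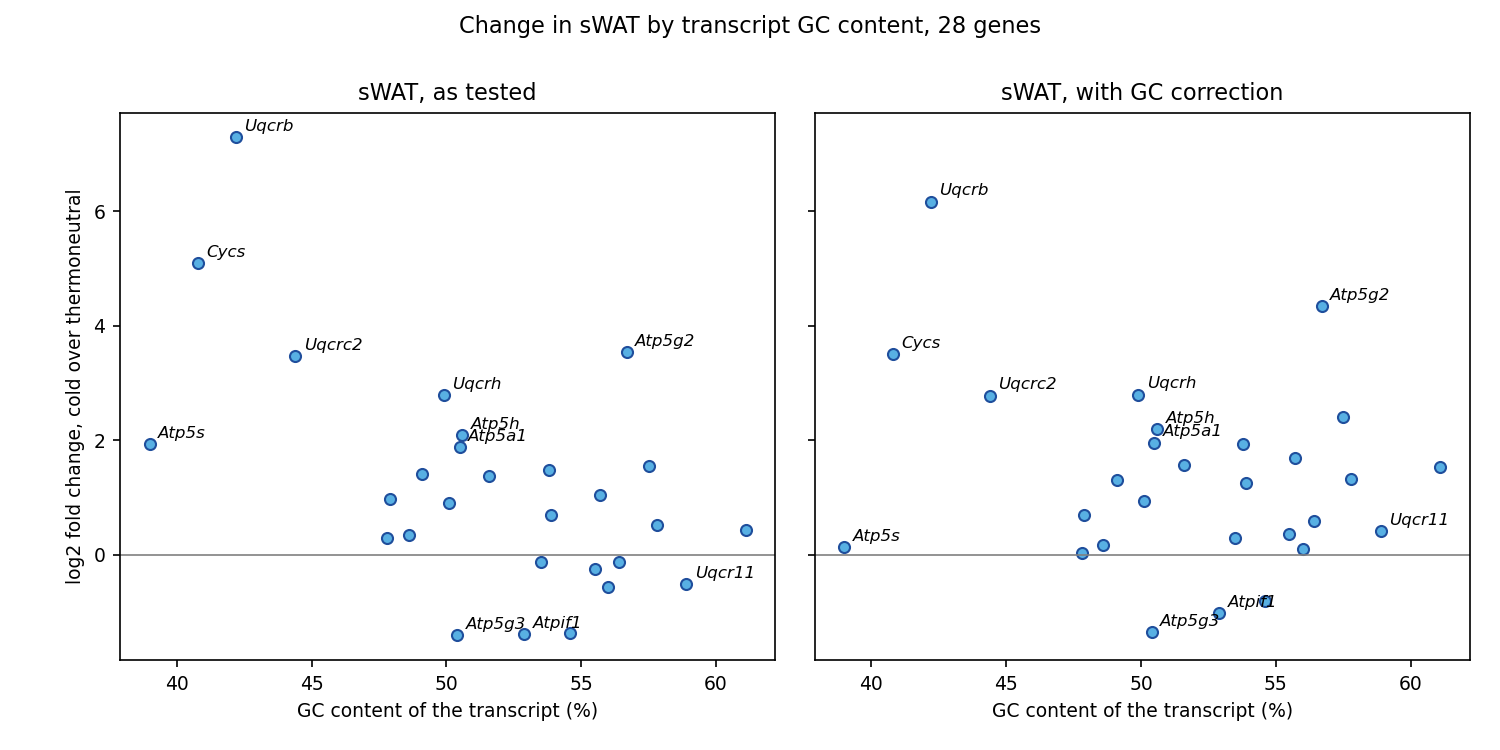
Log2 fold change in sWAT, cold over thermoneutral, against the GC content of the transcript in percent, 1 point per gene, as tested on the left and with a GC correction on the right. Uqcrb and Cycs lie at the upper left in both panels, Atp5g2 stands apart at 56.7% GC, and Atp5s is at 0.14 after correction.

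Transcript length also varied with the fold change in BAT: the Spearman correlation over the 28 genes was 0.54, against 0.13 over all 14481 tested genes with a length. In sWAT it was 0.34, against 0.20. The 6 shortest mRNAs, at 371 to 445 nt, are those of Atp5k, Uqcrq, Atp5e, Uqcr10, Atp5g2 and Uqcr11, with 53.9% to 58.9% GC. Each was below both other libraries of its group in BAT cold library 3, BAT thermoneutral library 3 and sWAT cold library 1. So were 23, 22 and 26 of all 28 genes. Uqcrq, for example, had 52.8 CPM in BAT cold library 3 against 991 and 940.0 CPM in libraries 1 and 2, and 90.1 CPM in sWAT cold library 1 against 955 and 643 CPM in libraries 2 and 3. A few genes went the other way in BAT cold library 3. Cycs had 583 CPM there against 321 and 208 CPM in libraries 1 and 2, Uqcrb had 989.9 CPM against 791 and 547 CPM, and Uqcrc2, Atp5f1 and Atp5s were also highest in that library. Over the 28 genes, the log2 difference from the other libraries of the group also varied with GC. The Spearman correlation was −0.71 in BAT cold library 3, −0.58 in BAT thermoneutral library 3 and −0.62 in sWAT cold library 1. Length and GC were not separated here.

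Some of these genes share sequence with others, and the sources used here do not say how shared reads were counted or whether strand was used. GENCODE lists 3 pseudogenes at least 95% identical to the mRNA of Uqcrb over 100 nt or more, 3 for Cycs, 3 for Atp5h and 2 for Atp5g2 among the genes that rose most, and 9 for Atp5l and 2 for Uqcr11, which were not called, so their counts are uncertain to that extent. Uqcrb overlaps Gm10767 on the opposite strand, Uqcrc2 overlaps Pdzd9, Uqcrh overlaps Gm12854, Atp5a1 overlaps Haus1 and Atpif1 overlaps Gm12999. If strand was not used, reads of each such pair cannot be told apart.

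The difference of the responses, sWAT minus BAT, was tested over all 12 libraries. It was called positive in 7 of the 28 genes, beside 17.3% of 16365 genes tested, and called negative in 0, beside 7.85% (edgeR, with 9 of 28 at an unadjusted p under 0.05). DESeq2 called the same 7 positive and 1 negative, Atp5sl, beside 5174 of the 16365 genes called either way. By limma-voom it was 7 and 0, beside 4323. The 7 were Uqcrb (7.11 ± 0.48, adjusted p = 1.71e-05), Cycs (5.0 ± 0.89, adjusted p = 0.00242), Atp5g2 (4.40 ± 0.95), Atp5s (3.06 ± 0.45, adjusted p = 9.92e-04), Uqcrh (2.84 ± 0.57, adjusted p = 0.00454), Atp5h (2.83 ± 0.62) and Uqcrc2 (2.59 ± 0.48, adjusted p = 0.00301). These 7 passed in each of 12 fits that left out 1 library. Atp5s lost its call with the GC correction (1.16, adjusted p = 0.141). Atpif1, whose cold libraries were below the thermoneutral ones in both tissues, showed a difference of −0.43 that did not pass (adjusted p = 0.538).

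Between tissues at thermoneutrality, 14 of the 28 genes were higher in BAT, beside 29.9% of genes tested, and 2 were lower, beside 28.8%. The comparison shares the sWAT thermoneutral libraries with the sWAT cold comparison, so it gives no separate evidence. The smallest adjusted p were those of Uqcrb (7.51 ± 0.41, edgeR adjusted p = 2.86e-07), Cycs (5.60 ± 0.72, adjusted p = 3.67e-05), Uqcrc2 (3.49 ± 0.37), Uqcrh (3.23 ± 0.43) and Atp5s (3.02 ± 0.33). Atp5g2 was at 3.86, Atp5h at 3.21, Atp5j2 at 2.03, and Atp5o, Uqcrc1, Atp5a1, Atp5f1, Atp5b and Atp5c1 between 1.20 and 1.76. Of these, Atp5a1 lost its call without sWAT thermoneutral library 2 (edgeR adjusted p = 0.0508) or 3 (0.0543), Atp5b and Uqcrc1 without library 3 (0.0571 and 0.0532), and Atp5c1 with the GC correction (0.0607). The genes lower in BAT were Atp5g3 (−1.77 ± 0.57, adjusted p = 0.0169) and Atpif1 (−1.07 ± 0.34, adjusted p = 0.0163). Neither of these last calls was made in every fit that left out 1 library: Atp5g3 lost its call without BAT thermoneutral library 3 (adjusted p = 0.0682), and Atpif1 without BAT thermoneutral library 2 (0.0622) or sWAT thermoneutral library 2 (0.0677). Atpif1 was also not called with the GC correction (−0.64, adjusted p = 0.0845) or the length correction (−0.34, adjusted p = 0.362). DESeq2, limma-voom and the replicate block each called a further gene lower in BAT, Atp5g1.

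In the cold, the tissues differed in fewer of these genes. None was higher in BAT, beside 1.19% of genes tested, and 1 was lower, beside 11.1% (edgeR; 3 of 28 had an unadjusted p under 0.05; DESeq2 called 2 higher, Atp5sl and Uqcrc2, and 1 lower; limma-voom 0 and 1). Atp5g1 had 16.0, 21.5 and 9.89 CPM in BAT cold libraries, against 24.3, 64.4 and 68.3 CPM in sWAT cold ones. The groups did not overlap, though BAT library 2 and sWAT library 1 were close. The log2 fold change was −1.72 ± 0.48 (adjusted p = 0.0323), and the call was lost without any one of the 3 BAT cold libraries, sWAT cold library 2 or 3, or BAT thermoneutral library 1, with adjusted p of 0.0599 to 0.118. For Uqcrb, the BAT cold libraries given above (547 to 989.9 CPM) overlapped the sWAT cold ones (505 to 709.7 CPM).

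Genes that work with these complexes were counted as well. Of 12 genes listed as assembly factors, 3 rose in BAT, beside 6.82% of all genes tested. One was Letmd1, an inner membrane protein (2.06 ± 0.29, edgeR adjusted p = 0.00480). The others were Hccs, which attaches heme to cytochromes c and c1 (1.29 ± 0.26, adjusted p = 0.0164), and Ttc19, a complex III assembly factor (0.92 ± 0.24, adjusted p = 0.0397). In sWAT 8 of the 12 rose, beside 25.1% of all genes tested, with Lyrm7, a chaperone of the Rieske protein (4.01 ± 0.45, adjusted p = 4.14e-04), Letmd1 (3.38 ± 0.49, adjusted p = 9.96e-04) and the complex III assembly factor Uqcc1 (1.97 ± 0.33, adjusted p = 0.00182) having the smallest adjusted p. The list also holds Foxred1, better known for complex I. Whether Letmd1 acts in assembly was not tested, so these counts are not of established assembly factors alone. None of the 3 carriers that bring ADP and phosphate to ATP synthase (Slc25a3, Slc25a4 and Slc25a5) passed in edgeR in either tissue, and none had an unadjusted p under 0.05.

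The mitochondrial genome encodes cytochrome b of complex III and subunits a and A6L of ATP synthase. In sWAT all 3 of these (mt-Cytb 7.45, mt-Atp6 7.90 and mt-Atp8 7.30) rose, their summed level being 49215 to 80052 CPM in cold libraries and 227 to 424 CPM in thermoneutral ones, the libraries whose small mitochondrial share is given above. In BAT 0 of the 3 passed in edgeR (0 with an unadjusted p under 0.05), at 0.27, 0.92 and 1.93. Of the 4 further symbols listed for ATP synthase, 3 were in the table. Usmg5, named Atp5md in RefSeq, rose in sWAT by 3.61 ± 0.42 (adjusted p = 4.78e-04), and 2010107E04Rik, named Atp5mpl there, by 2.82 ± 0.63 (adjusted p = 0.00642). The remaining one, 1110020A21Rik, is given without a subunit name, and whether it encodes a subunit was not tested. It fell in BAT, at 0.765 ± 0.289 CPM in cold and 3.09 ± 0.895 CPM in thermoneutral libraries (−1.95 ± 0.41, edgeR adjusted p = 0.0202).

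Genes with symbols of complex I and complex IV subunits were counted in the same way, with no test of how they differ from the 28 genes. The 38 complex I genes were picked by their Nduf symbol, Ndufa4l2 among them, and not from a list of known subunits. Of these, 10 rose in sWAT, near the share of 25.1% over all genes. In BAT 0 passed with edgeR (1 with an unadjusted p under 0.05). The median log2 fold changes were 0.54 in sWAT and −0.07 in BAT. Of 16 complex IV subunit genes, 4 rose in sWAT, again near that share, and 0 passed in BAT (1 with an unadjusted p under 0.05), with medians of 0.29 in sWAT and −0.19 in BAT. Neither list had a gene called lower in either tissue. With the replicate block, complex I had 3 genes lower in BAT, beside 8.94% of all genes tested. In sWAT the block gave 7 complex I genes and 1 complex IV gene higher, with 41.4% of all genes called in either direction. With the GC correction 17 of the 38 complex I genes were higher in sWAT, beside 24.1% of all genes, and 1 was lower, beside 19.0%. Of the 16 complex IV genes, 3 were then higher.

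Markers of cell types were counted too. The 12 skeletal muscle markers, all detected, summed to 8059, 22234 and 21706 CPM in sWAT cold libraries and 2085, 5570 and 121 CPM in sWAT thermoneutral ones. In sWAT 8 of them rose, beside 25.1% of all genes tested. In BAT they summed to 4569 to 7046 CPM in cold and 3837 to 13073 CPM at thermoneutrality. The 7 adipocyte markers summed to 15942 to 22058 CPM in sWAT cold and 5035 to 6823 CPM in sWAT thermoneutral libraries, and to 16268 to 20452 CPM in BAT cold and 13476 to 13686 CPM in BAT thermoneutral ones. The 10 lymphocyte markers summed to 203 to 638 CPM in sWAT cold and 605 to 858 CPM in sWAT thermoneutral libraries, with 4.58 to 8.79 CPM in BAT cold and 11.2 to 15.2 CPM in BAT thermoneutral ones. The 7 macrophage markers summed to 206 to 364 CPM in sWAT cold and 513 to 1087 CPM in sWAT thermoneutral libraries, with 71.4 to 83.4 CPM in BAT cold and 70.2 to 134 CPM in BAT thermoneutral ones. In sWAT cold, 6 of 7 brown adipocyte markers tested and 3 of 7 adipocyte markers rose, beside the same 25.1%. The 7 adipocyte markers had a median log2 fold change of 0.07, so their higher sum was not shared by all of them. Of 10 lymphocyte markers 5 fell, beside 24.1% of all genes tested, and of 7 macrophage markers 1 rose and 2 fell, beside the same shares. No marker of these lists was at 0 throughout a group. Their part in the values of the 28 genes was not tested. In sWAT thermoneutral libraries 1, 2 and 3, with muscle marker sums of 2085, 5570 and 121 CPM, Uqcrb had 3.67, 4.88 and 2.81 CPM. Uqcrb is 1 gene picked from the 28, and the others were not set beside the markers.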

How the data were processed

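RNA was sequenced from BAT and sWAT of mice kept in the cold or at thermoneutrality, with 3 libraries in each of 4 groups. The authors deposited raw read counts per gene for 23163 symbols in 12 libraries, whole numbers without normalization. Per the submitters' processing notes, STAR, DESeq2 and the mm10 build were used. How reads were counted, by which annotation and strand setting, and what was done with reads matching several places is not given in the sources used here. For 2 libraries, BAT cold 1 and sWAT cold 2, the header has the prefix Merged, without saying of what.

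Groups came from the labels. Counts were analysed with edgeR 4.0.16 and limma 3.58.1 under R 4.3.3: genes kept by filterByExpr, TMM scaling, glmQLFit with robust=TRUE, glmQLFTest, and Benjamini-Hochberg adjustment (all genes of a comparison; threshold 0.05). There were 5 comparisons: cold against thermoneutral within BAT and within sWAT, each on its own 6 libraries, and, over all 12, the difference of those responses and BAT against sWAT at each temperature. The SE follows from the log2 fold change and its F statistic. CPM use TMM-scaled totals over 12 libraries, and CPM per kb divides by the length of the shortest best-supported principal transcript in GENCODE M21, which matched 22590 symbols (97.5%). Pseudogene copies were found with BLAST 2.17.0. Ratios within libraries were compared by exact permutation tests, two-sided, whose smallest p is 0.10. The fits were tested on simulated data.

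Full statistics were given for up to 5 genes higher and 5 lower per comparison with the smallest adjusted p, or the 2 with the smallest p where none passed, and in both cold comparisons for Cycs, Cyc1, Uqcrc1, Uqcrfs1, Atp5b, Atp5g1, Atp5g2, Atp5g3 and Atpif1. Other called genes have their log2 value, and genes named for their spread or overlap were chosen after their values were seen. The lists of other genes were assembly factors, carriers, mitochondrially encoded subunits, further ATP synthase symbols, testis cytochrome c, subunits of complexes I and IV, and markers of brown adipocytes, adipocytes, skeletal muscle, lymphocytes and macrophages. The 28 genes and the lists were chosen with earlier results of these data known.

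Alternatives were RLE and upper quartile scaling, no low-count filter or one at 1 CPM in 3 libraries, DESeq2 1.42.0, limma-voom, all 12 libraries in each fit, corrections for GC content and length, a replicate block with and without the GC correction, and leaving out single libraries or both BAT libraries numbered 3. The block is the experiment number of the titles, which do not say what an experiment shares, and same-numbered libraries did not all deviate together. The ratios without both BAT libraries numbered 3 or without Uqcrb were added after the data were seen. The lowest count of any of the 28 genes in a library was 10, for Atp5g2.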

Additional observations from a re-analysis of the deposited data

Results flagged for a closer look

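The response to cold differed between sWAT and BAT in 7 of the 28 genes by edgeR's test of the difference itself. All 7 differences, sWAT minus BAT on the log2 scale, were positive, beside 17.3% of the 16365 genes tested. Uqcrb, a small subunit of complex III, differed by 7.11 (adjusted p = 1.71e-05), and Cycs, cytochrome c, by 5.0 (adjusted p = 0.00242). The other complex III genes are Uqcrc2 at 2.59 (adjusted p = 0.00301) and Uqcrh at 2.84 (adjusted p = 0.00454). In ATP synthase they are the c ring gene Atp5g2 at 4.40 (adjusted p = 0.00612), the stalk gene Atp5h at 2.83 (adjusted p = 0.00643) and Atp5s at 3.06 (adjusted p = 9.92e-04). With the GC correction Atp5s lost its call (1.16, edgeR adjusted p = 0.141). All 7 rest on the same 3 sWAT thermoneutral libraries, in which mitochondrially encoded genes took 0.181% to 0.307% of the counts.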

How the results depend on the processing

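Of 37 named gene values under 718 alternatives, 654 kept direction and side of the threshold, 32 lost and 20 gained a call, and 12 changed sign. In BAT, where none of the 28 genes was called, calls higher and lower were 1 and 1 with DESeq2 or after correcting for GC, 0 and 1 when scaled by upper quartile or fitted with all 12 libraries, 6 and 5 without both libraries numbered 3, and 0 to 1 each way without single libraries. Over all genes, the BAT calls either way were 2806 of 14612 with DESeq2 and 3256 of 14612 with the GC correction. They were 1863 of 14612 with upper quartile scaling and 2373 of 16365 with all 12 libraries. Without both libraries numbered 3 they were 6509 of 14566, and without single libraries 451 to 2483. Upper quartile scaling moved the median of all genes in BAT to −0.20, against −0.04. In sWAT the calls lower were 1 with all 12 libraries, 3 with DESeq2 (Atp5e added) and 1 to 2 without single libraries, and the calls higher 8 to 16. Over all genes, the sWAT calls either way were 8160 of 16365 with all 12 libraries and 8272 of 15731 with DESeq2. Without single libraries they were 5672 to 8719. For the difference, DESeq2 gave 1 lower, beside 5174 of 16365 genes called either way. Single omissions gave 0 to 1 lower, beside 2419 to 5498 genes called either way. Between tissues at thermoneutrality, calls lower were 1 with the GC or the length correction, 3 with DESeq2, limma-voom or the replicate block, and 1 to 3 without single libraries. Of 16365 genes, the calls either way there were 9459 with the GC and 9706 with the length correction. They were 9996 with DESeq2, 9739 with limma-voom and 9626 with the replicate block. In the cold, calls higher were 2 with DESeq2, 1 with the GC correction and 0 to 2 without single libraries. Calls lower were 0 to 1. The edgeR fit of all 12 libraries called 1.19% of all genes higher and 11.1% lower in that comparison.

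The numbers are those of experiments in the titles. Same-numbered BAT libraries correlated in their deviations at 0.308, 0.068 and 0.291, and sWAT ones at −0.233, 0.187 and −0.315. With the replicate block, BAT had 1 higher (Uqcrc2) and 1 lower (Atp5j), beside 2799 of all 14612 genes called either way. In sWAT the block gave 8 higher and 2 lower, beside 6509 of 15731, without Atp5a1, Atp5b, Atp5o and Uqcrc1. Apart from Atp5g1 at thermoneutrality, it changed no call in the other 3 comparisons. With the replicate block and GC correction, BAT had 2 higher and 5 lower, beside 3645 of all 14612 genes called either way. BAT against sWAT at thermoneutrality then had 1 lower, beside 9196 of 16365 genes called either way. In sWAT, Uqcrfs1 was −0.05 and Atp5g1 0.50 in that setting.

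Changes of sign were these. The BAT share of Atp5g1 in the c ring was −0.42 without both libraries numbered 3 and −0.29 to 0.39 without single libraries. Cycs in BAT was 0.00 with upper quartile scaling, −0.56 without both libraries numbered 3, and −0.34 to 0.42 without single libraries (negative without cold library 3 and, at −0.10, without thermoneutral library 3). Atp5g3 in BAT was −0.80 to 0.01 without single libraries, positive without cold library 3. In sWAT, Atp5g1 was 0.59 with the GC and 0.34 with the length correction and −0.36 to 0.22 without single libraries (positive without cold library 1 and, at 0.01, thermoneutral library 1), and Uqcrfs1 was −0.06 (without cold library 3) to 0.77. None of these values was called, and the cause was not tested. With 3 libraries per group, no ratio could reach a permutation p under 0.10.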
